A study of Drosophila melanogaster with 2 samples.

Results

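Chromatin immunoprecipitation followed by sequencing (ChIP-seq) located 230 binding regions of a dsf-eGFP fusion protein on the X chromosome of Drosophila melanogaster larvae. They were taken from the shorter of the deposited series-level lists, which keeps regions that pass a threshold on the irreproducible discovery rate (IDR), by the single rule that the region lies on X. The list held 1731 regions on the dm6 build, of which 1478 lay on the other nuclear arms (2L, 2R, 3L, 3R and 4) and 23 on the mitochondrial genome. The animals were whole wandering larvae of the third instar, with males and females pooled, from a transgenic line that stably expresses dsf with green fluorescent protein at its C terminus. The fusion was pulled down from sonicated chromatin with an antibody against the fluorescent tag, per the sample descriptions (the labels' antibody field names dsf instead), in 2 biological replicates, numbered 3 and 4 and tied by the labels to separate biosamples. Both replicates form 1 group, and the control experiment the labels name as possible was not analysed here, so the comparison is of X with the other arms within the same lists. Males carry a single X and the sexes were pooled, so the number of X copies per cell and the binding per copy cannot be told apart. The files hold no read counts, so the depth of each replicate is unknown.

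The gene dsf (dissatisfaction) encodes a nuclear receptor related to tailless that is known for roles in sexual behaviour and in the neurons that serve it. The X chromosome of male flies is transcribed at a raised rate by the dosage compensation complex, which carries the noncoding RNAs roX1 and roX2, spreads from sites rich in GA repeats and settles over active genes. In females the RNA-binding protein Sxl keeps that complex from forming, and genes on X such as Raf, ph-p and br also serve signalling, Polycomb silencing and the ecdysone response.

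The sequence under the summit, the point of highest signal, is shown for the 4 strongest promoter regions and the 4 strongest intron regions on X, because these carry the highest signal of each class. Each window spans 50 bp to either side of the summit on the plus strand of dm6 (release 6 genome, RefSeq). Capitals mark any match, on either strand, to the 8 words searched. These were AAGTCA (a receptor site), TATCGA (a boundary factor site), TATAAA (the TATA box), the GA repeat GAGAGA with its longer form GAGAGAGA, CAGCTG (an E box), GTCACA (part of the M1BP site) and also CAGGTA (part of the Zelda site). The longer GA repeat contains the shorter one. The promoter windows, chrX:2703837-2703937 at Ugalt, chrX:15867954-15868054 at Gapdh2, chrX:2137276-2137376 at ph-p and chrX:12752314-12752414 at lncRNA:CR44619, come first. The intron windows follow, from chrX:4910311-4910411 in CG32772, chrX:3742182-3742282 in Tlk, chrX:4324931-4325031 in norpA and chrX:5918857-5918957 in CG3726.
Ugalt: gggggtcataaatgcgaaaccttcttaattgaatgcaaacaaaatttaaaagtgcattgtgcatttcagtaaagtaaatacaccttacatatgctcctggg
Gapdh2: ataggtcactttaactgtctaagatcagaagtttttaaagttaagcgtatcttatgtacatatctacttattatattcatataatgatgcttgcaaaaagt
ph-p: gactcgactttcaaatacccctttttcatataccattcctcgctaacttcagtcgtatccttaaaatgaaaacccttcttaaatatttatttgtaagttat
lncRNA:CR44619: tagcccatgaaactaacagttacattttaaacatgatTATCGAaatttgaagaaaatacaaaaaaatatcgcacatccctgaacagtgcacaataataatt
CG32772: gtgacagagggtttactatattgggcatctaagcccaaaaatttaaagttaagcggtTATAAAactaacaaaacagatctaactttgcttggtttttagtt
Tlk: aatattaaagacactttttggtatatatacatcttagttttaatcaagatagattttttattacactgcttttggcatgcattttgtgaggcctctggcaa
norpA: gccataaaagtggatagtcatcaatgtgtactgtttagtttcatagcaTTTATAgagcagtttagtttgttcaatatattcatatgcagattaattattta
CG3726: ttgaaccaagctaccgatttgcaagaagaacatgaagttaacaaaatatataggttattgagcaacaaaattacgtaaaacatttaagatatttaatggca

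These 8 windows were rich in A and T, at 64.4% to 73.3%, and 3 of them held a searched word. Over all X regions the median A and T content of the window was 67.3%, against 68.3% over regions on the other arms.

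None of the 8 words differed between summits on X and summits elsewhere past the threshold used. The word AAGTCA, the core site bound by tailless and its relatives, lay within 50 bp of 13 X summits (5.65%) and of 77 summits on the other arms (5.21%). Among all windows of the same length it was present in 4.87% on X and in 5.48% on the other arms. TATCGA, known from the sites of BEAF-32 and DREF at insulators and promoters, was near 19 X summits (8.26%) and 154 elsewhere (10.4%), against 4.02% of all X windows and 3.65% of all other windows. TATAAA, the TATA box word, was near 48 X summits (20.9%) and 345 elsewhere (23.3%), against 10.98% of all X windows and 11.9% of all other windows. GAGAGA, the repeat bound by GAGA factor and by CLAMP, which recruits the dosage compensation complex, was near 5 X summits (2.17%) and 52 elsewhere (3.52%), against 3.80% and 3.49% of all windows. The longer repeat GAGAGAGA was found near 1 X summit and 9 others. The test was a two-sided Fisher's exact test with Benjamini-Hochberg adjustment over the 19 tests made of X against the other arms, and the smallest adjusted p of the 8 words was 0.302, for CAGGTA, near 8 X summits (3.48%) and 25 elsewhere (1.69%). These tests treat regions as units. Regions are not independent replicates, so each p describes the list.

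X held fewer regions than its share of start sites. Of the nuclear regions, 13.5% lay on X (95% exact interval 11.9 to 15.2, counting error only), against 17.0% of protein-coding transcription start site (TSS) positions, and the exact binomial p was 7.32e-05. Among the 1731 strongest regions of each replicate's own list, the share was 14.0% in replicate 3 and 13.2% in replicate 4, a mean of 13.6% ± 0.532 (SD, n = 2). Further down the lists the replicates parted. Below rank 5000, X held 12.9% of regions in replicate 3 and 16.5% in replicate 4, a wider gap than among the strong regions. The whole lists averaged 14.6% ± 2.19 (SD, n = 2).

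**Figure D1:**
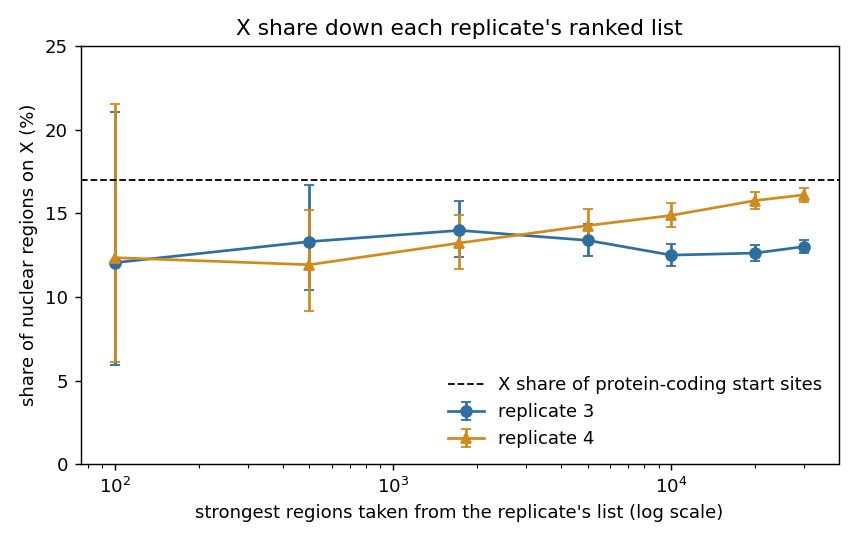
Share of nuclear regions that lie on X (percent, vertical axis) among the strongest regions of replicate 3 and replicate 4, by the number of regions taken (horizontal axis, log scale). Bars are 95% exact intervals and the dashed line is the X share of protein-coding start sites, 17.0%; the replicates lie at 14.0% and 13.2% at 1731 regions and at 13.0% and 16.1% over the whole lists.

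The shortfall on X was spread unevenly over kinds of sequence. Per Mb, X carried 9.77 regions, against 12.4 to 14.4 on the 4 other large arms. A summit within 1 kb of a TSS was counted as a promoter summit, and as divergent where it lay between a TSS pointing left and one pointing right, both within 1 kb. Divergent promoter regions were at 2.38 per Mb on X and 4.69 on the other arms together. Promoter regions of other kinds were at 4.25 per Mb on X and 5.16 on the other arms. Intergenic regions were at 0.170 per Mb on X and 1.09 on the other arms. Intron regions went the other way, at 2.89 per Mb on X and 2.32 on the other arms, and X stood above each of the large arms, which ran from 2.10 to 2.64. The margin over the closest arm was small, with 68 intron regions on X and 62 on 2L, each 23.5 Mb long. Introns outside promoters made up 39.8% of X sequence and 33.1% of 2L. All densities here are per Mb of whole arm, and their differences were not tested. Protein-coding TSS positions were about as dense on X, at 139.1 per Mb, as on the other arms, at 144.8.

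**Figure D2:**
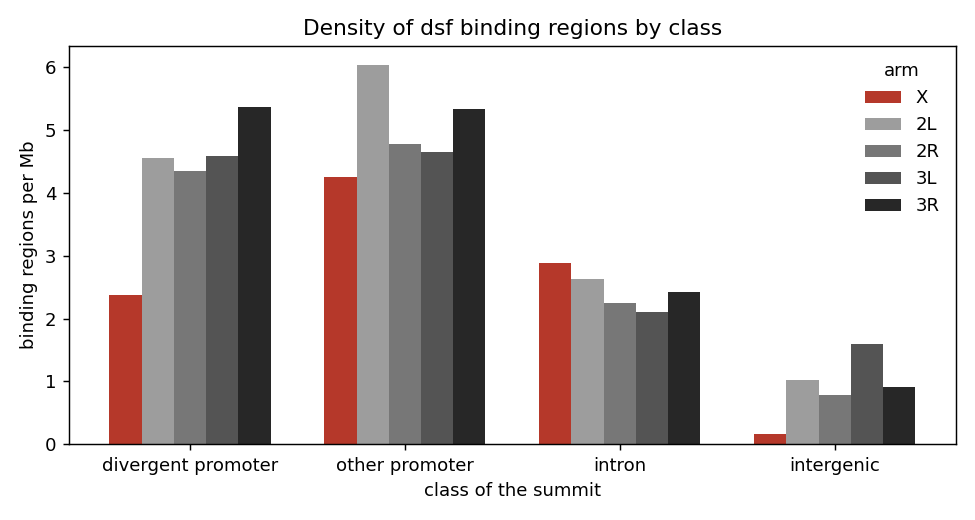
Binding regions per Mb (vertical axis) in 4 classes of summit position, for X and the 4 other large arms. X is the lowest of the 5 arms for both promoter classes and for intergenic regions, and the highest for intron regions, at 2.89 per Mb.

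As shares of all regions, the same classes set X apart. Intron regions made up 68 of 230 on X (29.6%, 95% exact interval 23.7 to 35.9) and 256 of 1478 on the other arms (17.3%, 15.4 to 19.3). The odds ratio was 2.003 (95% interval 1.44 to 2.77) and the adjusted p of Fisher's exact test was 0.000526. The single large arms ran from 16.1% to 18.3%, so X lay above all 4. Kept to the regions that both replicates also ranked among their strongest, the shares were 26.5% on X and 19.5% on the other arms, and the adjusted p was 0.247. By the same class rules, introns made up 39.8% of X sequence and 35.4% of the other arms. Among the other large arms that sequence share ran from 33.1% on 2L to 39.97% on 3R. On 3R, 17.2% of regions lay in introns. The part of intron sequence in the result was not tested. The pooled series-level list goes on below the IDR threshold, and of those weaker regions 45.2% on X and 38.2% elsewhere lay in introns.

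Only 4 X regions (1.74%) were intergenic, against 120 on the other arms (8.12%). The odds ratio was 0.2004 (95% interval 0.0532 to 0.535) and the adjusted p of Fisher's exact test was 0.00160. In the strongest 25% of the list the shares were 1.82% on X and 5.11% on the other arms, and the adjusted p of Fisher's exact test was 1. Intergenic sequence was 20.8% of X and 26.1% of the other arms, and ran from 21.9% to 30.1% on the large arms among them. Of the weaker regions, 8.02% on X and 15.9% elsewhere were intergenic. All 4 lay within 3 kb of a TSS. They were 2921 bp upstream of CG3847, 1939 bp upstream of Atf3, a bZIP transcription factor gene, 1010 bp upstream of CG43658 and 1882 bp from lncRNA:CR15061.

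Divergent promoters held 56 X summits (24.3%) and 518 summits on the other arms (35.0%). The odds ratio was 0.597 (95% interval 0.425 to 0.827) and the adjusted p of Fisher's exact test was 0.00783. In the strongest 25% of the list the gap was 16.4% on X against 41.1% on the other arms. Sequence between divergent start sites was 1.38% of X and 1.57% of the other arms, and ran from 1.36% on 3L to 1.76% on 2R among the large arms. Among the weaker regions below the threshold the order was turned round, at 5.86% on X and 4.77% on the other arms. Counting all promoters, the share was 67.8% on X (156 regions) and 73.5% elsewhere (1087), a difference that did not pass (adjusted p of Fisher's exact test = 0.302). One X summit each lay in a 3' UTR, of CG7872, and in a noncoding exon, of lncRNA:CR44619.

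**Figure D3:**
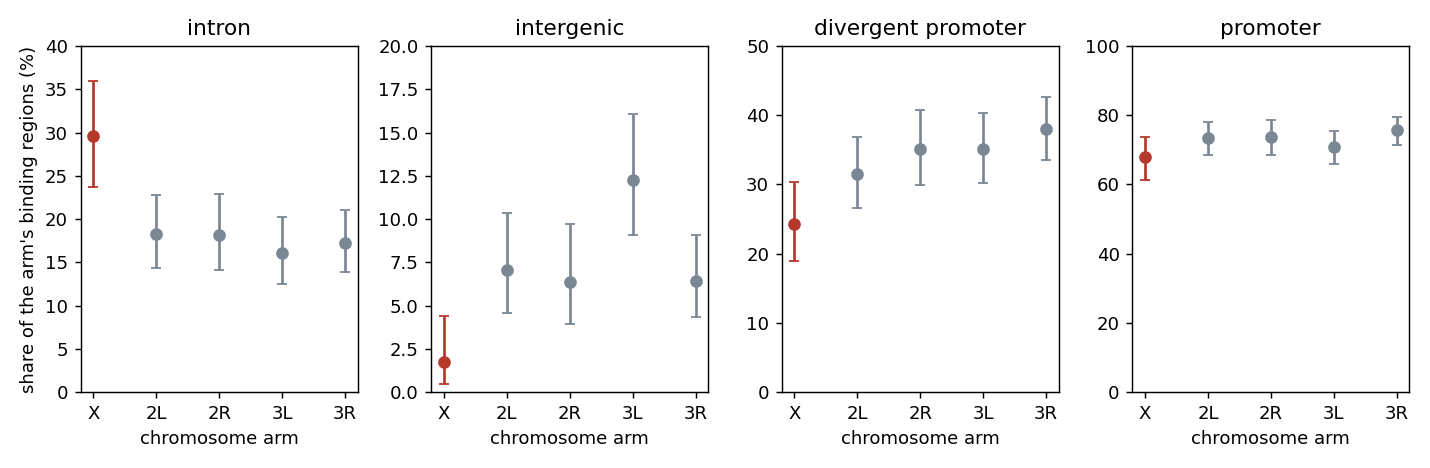
Share of each arm's binding regions (percent, vertical axis) that lie in introns, in intergenic sequence, at divergent promoters and at promoters of any kind, for X and the 4 other large arms, with 95% exact intervals. X has the highest intron share, 29.6%, and the lowest share of the other 3 classes.

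Promoter summits on X lay mostly just upstream of the start. Of 147 X summits within 1 kb of their nearest protein-coding TSS, 113 (76.9%, 95% exact interval 69.2 to 83.4) were upstream of it, against 841 of 1037 (81.1%, 78.6 to 83.4) on the other arms. The median position was 102 bp upstream in both sets. Measured to the nearest TSS of any kind, promoter summits were a median 156 bp away on X, against 119 to 125 bp on the other large arms. Intron summits on X lay a median 2931 bp from the nearest TSS, with quartiles of 1740 and 5473 bp. Of the 68, 21 were between 1 and 2 kb away and 11 were more than 10 kb away.

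The strength of X regions did not differ past the threshold from that of regions elsewhere. Their signal value, the authors' own score for each region, had a median of 101.7, with quartiles of 85.7 and 139.2 and a range of 73.5 to 712.5. The other large arms had medians of 102.3 to 109.1. Of the X regions 55 (23.9%) were among the strongest 25% of the nuclear list, against 372 (25.2%) on the other arms, with an odds ratio of 0.934 (95% interval 0.662 to 1.30) and an adjusted p of Fisher's exact test of 1. On X, promoter regions had a median signal of 105.7 and intron regions one of 98.6.

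The strongest X region lay at Ugalt, which encodes a transporter of UDP-galactose into the Golgi (FBgn0024994). In the joint list its signal was 712.5. Replicate 3 gave it 291.9 and replicate 4 gave it 419.8. The summit sat 35 bp upstream of the TSS, between divergent start sites. The intron of CG32772 followed, at 548.2, with 214.9 in replicate 3 and 330.2 in replicate 4. Gapdh2, a glyceraldehyde-3-phosphate dehydrogenase gene of glycolysis, had a promoter region at 448.4, with 144.1 in replicate 3 and 304.0 in replicate 4. All 3 values were higher in replicate 4, as were those of most X regions. By rank in the replicate's own list, Ugalt was at 7 in replicate 3 and 17 in replicate 4. CG32772 was at 21 and 23, and Gapdh2 at 58 and 26.

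ph-p, a subunit gene of the Polycomb repressive complex PRC1, carried a region 471 bp upstream of its nearest TSS at 423.4, with 206.1 in replicate 3 and 217.3 in replicate 4. The start of lncRNA:CR44619 carried regions at 406.7 and 270.9, and the nearest protein-coding TSS, of CG4004, was 6047 and 5121 bp away. A region at 382.2 lay 1112 bp upstream of the nearest TSS of Zw, which encodes glucose-6-phosphate dehydrogenase of the pentose phosphate pathway, and 864 bp from the start of asRNA:CR44512. A region at 340.5 lay 705 bp inside LPCAT, an acyltransferase gene of phospholipid synthesis. Introns carried the regions at Tlk, the Tousled-like kinase gene, at 335.9, and at norpA, the phospholipase C gene of phototransduction, at 290.0. They also carried those of CG3726 at 275.4, of Raf, the kinase gene of the MAP kinase pathway, at 263.1, and of Hr4, an ecdysone-induced nuclear receptor gene, at 228.4. Promoter regions of bves, at 269.6, and of Ptpmeg2, a tyrosine phosphatase gene, at 227.9 completed the 15 strongest, of which 9 were promoter and 6 intron regions. All 15 were among the 1731 strongest of both replicates.

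Most X regions had a match in the lists of both replicates, as did most regions elsewhere. Of the 230, 212 (92.2%) had a summit within 100 bp anywhere in the list of replicate 3 and 225 (97.8%) in that of replicate 4, and 207 (90.0%) in both. On the other arms the shares were 88.9%, 96.2% and 85.7%. Each replicate's list held 29999 regions, background among them, so a match anywhere is a loose criterion. Among each replicate's strongest 1731 were 179 X regions in replicate 3 and 171 in replicate 4, 136 in both (59.1%) and 16 in neither. On the other arms 830 of 1478 (56.2%) were among the strongest of both, and the difference did not pass Fisher's exact test (adjusted p = 0.775). These levels are partly built in, because both replicates went into the joint list. Where both replicates had a signal, replicate 4 over replicate 3 had a median log2 ratio of 0.46 on X and of 0.53 on the other arms, and on X 34 of the 207 regions were higher in replicate 3. A promoter region at pdgy, with 89.1 in replicate 3 and 35.7 in replicate 4, was the strongest X region not among the leading 1731 of both; it was singled out after its values were seen.

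**Figure D4:**
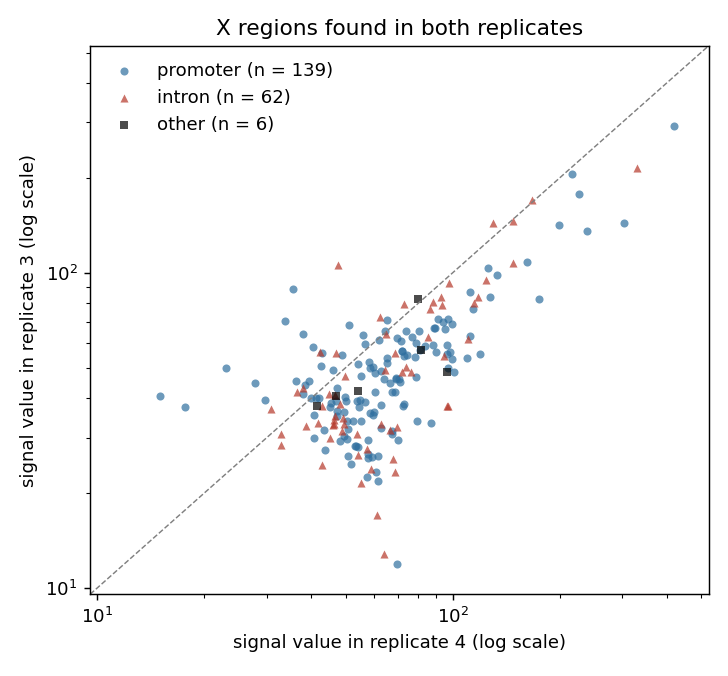
Signal value of X regions in replicate 4 (horizontal axis, log scale) and replicate 3 (vertical axis, log scale) for the 207 regions with a summit in both lists; circles are promoter regions (n = 139), triangles intron regions (n = 62) and squares others (n = 6), and the dashed line is equal signal. Most points lie below the line, with 34 above it, and promoter and intron regions overlap over most of the range.

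The share of summits with a close neighbour did not differ past the threshold between X and the other arms. Another summit lay within 10 kb of 109 X summits (47.4%) and of 761 summits on the other arms (51.5%), with an odds ratio of 0.849 (95% interval 0.636 to 1.13) and an adjusted p of Fisher's exact test of 0.775. Consecutive X summits were a median 39.3 kb apart, against 23.0 to 28.0 kb on the 4 other large arms, which carry more regions per Mb. That distance was not tested. In 14 runs of at least 3 summits, each within 10 kb of the next, lay 49 X regions (21.3%), against 19.1% to 30.02% on the other large arms.

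The longest X runs had 5 summits. One spanned 7.44 kb over ph-p and its neighbour D2hgdh, which encodes D-2-hydroxyglutarate dehydrogenase, with signal from 86.8 to 423.4. Another spanned 14.7 kb inside CHES-1-like, a forkhead transcription factor gene, at 78.9 to 217.9. A run of 4 spanned 6.30 kb inside Tlk, with signal from 82.6 to 335.9. Among the strongest of both replicates were 4 of the 5 regions of the ph-p run and 3 of 5 in CHES-1-like. In the Tlk run it was 1 of 4.

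Runs of 3 summits lay wholly in introns at Raf (263.1 to 82.0) and inside CG1677 (140.7 to 75.3), where the nearest TSS were those of unc-119 and brk, the repressor gene of Dpp targets. They lay wholly at promoters at LPCAT and Hex-A, a hexokinase gene, and at Ptpmeg2. The same held at Rab40, a small GTPase gene, with CG42258, and at Acat1, CG45089 and RpS6. The run at UQCR-14, CG32576 and CG3632, the first of them a gene of respiratory complex III, was also of promoter summits, and none of its 3 regions was among the strongest of both replicates. The rest mixed classes, at CG3587 and Hr4, at CG8034, and at lncRNA:CR44619 near CG4004 and Paics, a purine synthesis gene.

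By gene, Tlk had the most summits inside it or up to 2 kb upstream, with 6, followed by 5 each at CHES-1-like, kirre and CG1677 and 4 each at ph-p and Raf. Among the strongest of both replicates were 2 of those at Tlk, 4 at CG1677 and 3 at each of the rest. These genes differ widely in length: ph-p is 12.2 kb long and kirre, which encodes an adhesion protein of muscle founder cells, is 394.1 kb. The 5 summits of kirre had signal of 81.4 to 157.3, and 4 of them were in introns. CG32795 lies inside kirre and 2 of those summits fall in both genes. ph-p and its neighbour ph-d are near-identical copies, so reads could be split between them.

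More X regions lay on the distal side of the arm's midpoint than on the proximal side, with 149 against 81, or 64.8% distal, while 52.6% of protein-coding TSS were distal. The distal share was 65.3% for the strongest X regions of replicate 3 and 63.3% for replicate 4. The densest bin of 1 Mb, starting 2 Mb from the distal end, held 23 regions, 12 of them in introns, and 203 TSS. The last 2 bins before the centromere held 0 regions, with 57 and 23 TSS, and the last summit lay 2174 kb from the end of the arm. Over the 24 bins, which differ in gene content, Spearman's rho between regions and TSS was 0.38, and between the strongest regions of replicate 3 and replicate 4 it was 0.84. The longest gap between consecutive X summits was 678.2 kb and held 131 TSS.

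**Figure D5:**
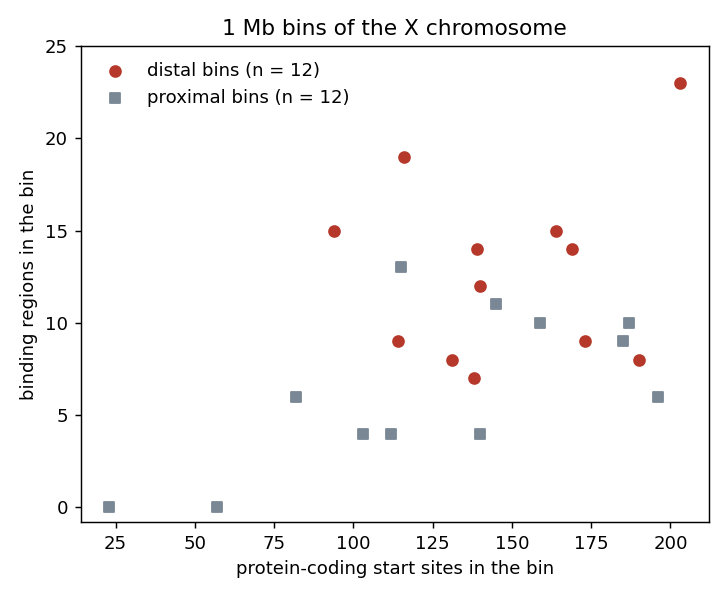
Binding regions (vertical axis) against protein-coding start sites (horizontal axis) in each 1 Mb bin of X, with the 12 distal bins as circles and the 12 proximal bins as squares. The bin with the most regions, 23, is distal, and both bins with 0 regions are proximal.

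Genes with a summit no more than 1 kb from a TSS of theirs were called bound, which describes position alone. By this label 8.61% of X protein-coding genes were bound (189 of 2196), against 12.8% on the other arms (1506 of 11749) and 12.2% of all nuclear genes. Each of the 4 other large arms had a higher share, at 11.3% to 14.1%. The counts below are to be read against 8.61%; the lists are short, were chosen with earlier results known, and were not tested.

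Genes of dosage compensation and X counting were bound in 0 of 8 cases, and a count of 0 allows a share of about 37.5%, taken as 3 counts over the size of the list. The nearest summit to roX1 lay 5975 bp upstream of its start, with a signal of 125.7, and the nearest to roX2 lay 44029 bp away. Sxl carried 1 intronic summit, 1354 bp downstream of a TSS, with a signal of 86.4 that ranked 856 in replicate 3 and 2753 in replicate 4. Of the ecdysone response list 0 of 11 genes were bound, for a limit of about 27.3% by the same rule. br, an early ecdysone-induced transcription factor gene, had its nearest summit 46659 bp from the closest of its TSS. Hr4 held 2 intronic summits, at 228.4 and 204.2. These counts of 0 depend on the threshold. In the pooled list, weaker regions lay within 1 kb of a TSS of br (67.3, rank 2048), usp (56.9, rank 2774) and Hr4 (33.1, rank 7805). The other ecdysone genes listed had none. Of the dosage compensation list, roX1 (29.1), roX2 (45.0) and Sxl (43.7) had such a region and the rest had none. Yolk and chorion genes, which are expressed in adult females, were bound in 0 of 10 cases, for a limit of about 30%.

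Cytoplasmic ribosomal protein genes were bound most often among the lists, in 7 of 15 cases, namely RpL36, RpS5a, RpS6, RpS10b, RpS14b, RpS19a and RpS28b. Their signal ran from 85.7 at RpS5a to 120.1 at RpS19a, so all 7 were well below the strongest regions. The summits lay 2 to 81 bp from the TSS except at RpS28b, where it was 831 bp upstream. The TSS nearest that summit was of l(1)G0320, 42 bp away. The regions at RpS10b and RpS28b had no summit within 100 bp in replicate 4, and RpS14b has a near-identical neighbour, RpS14a.

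Of the growth and chromatin list 4 of 15 genes were bound. ph-p had the strongest region of these, with ph-d at 80.6, Dsp1, an HMG-box gene, at 109.3 and nej, which encodes the acetyltransferase CBP, at 95.2. The nej region ranked 960 in replicate 3 and 14610 in replicate 4. Its summit lay 739 bp upstream of nej and 384 bp from the TSS of lncRNA:CR42657, which is nearer. The Dsp1 summit lay 610 bp upstream of Dsp1 and 598 bp from the TSS of CG9921, which is nearer. Smr, a nuclear receptor corepressor gene, was not bound and held 1 intronic summit, at 162.8.

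Of the achaete-scute and neural list 3 of 18 genes were bound. elav, the neuronal RNA-binding protein gene, had a summit 283 bp upstream of its TSS, at 171.9, ranked 310 in replicate 3 and 308 in replicate 4. dnc, the cAMP phosphodiesterase gene of learning, had promoter summits 323 bp upstream of a TSS at 119.3 and 237 bp upstream of another at 102.1. amn, a neuropeptide gene of memory, had one 405 bp downstream at 78.1. The arg gene overlaps elav on the other strand and shares its 2 summits.

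Of the signalling and patterning list 3 of 23 genes were bound. sgg, which encodes the kinase GSK3 of Wnt signalling, had a summit 192 bp upstream at 149.5. sd, the TEAD factor gene of the Hippo pathway, had one 241 bp downstream at 95.1, and mys, a beta integrin gene, one 89 bp upstream at 81.9. N, the Notch receptor gene, was not bound and held 1 intronic summit at 130.9. Of the pigment and visible marker list 2 of 14 were bound, cm, a subunit gene of the AP-3 complex, at 169.3 and ras, the IMP dehydrogenase gene, at 90.6 and 77.3. The stronger of the ras regions lay 52 bp upstream of stx, whose TSS is the nearest to it. The cm summit lay 157 bp upstream of cm and 55 bp upstream of sloth1, whose TSS is nearer.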

How the data were processed

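The deposited peak lists give a position, a summit and a signal value for each region. The signal value was made by the authors and is used here to rank and describe regions within a list. Where the values of both replicates are compared, a difference in scale between their lists was not removed. Per the file descriptions, each replicate's list is peaks and background meant as input for IDR, and the series-level lists derive from both replicates. Which aligner and peak caller were used, and with what control, is not given in the sources used here, so the treatment of X copy number in the signal is unknown. The files give no read counts, so depth is unknown and intervals (95%, Clopper-Pearson) cover counting error over regions only. For a list with 0 bound members the limit given is 3 counts over its size, not an exact interval.

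Regions were those of the dm6 IDR-thresholded list. Genes came from Ensembl release 115, without transposable elements. Feature classes were assigned with promoters taking priority, then UTRs and coding exons, then noncoding exons, introns and intergenic sequence. X was compared with the other arms by two-sided Fisher's exact tests (scipy 1.17.1, Python 3.11.15), adjusted by Benjamini-Hochberg over 19 tests, with a threshold of 0.05. The functions were tested on simulated data. Alternatives took each replicate's own strongest 1731 regions, the strongest 25%, other distances, the dm3 list, and the regions supported by both replicates.

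The genes named were those with the TSS nearest the 15 strongest X regions, the 6 with most summits, those at runs of 3 or more summits, bound list members, and roX1, roX2, Sxl and br. The nearest TSS could belong to a gene other than the one that holds the summit, and phm was matched as phtm (Cyp306a1). The members and lists were chosen with earlier results of these data known. One run of summits is not reported here.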

Additional observations from a re-analysis of the deposited data

How the results depend on the processing

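The lower X share of regions kept its direction and its exact binomial p below 0.05 under all 8 alternatives, at 0.757 to 0.850 times the expected share. The expected share was that of start sites, except in the alternative that took the X share of sequence, 17.6%. The lower share of divergent promoters passed the adjusted threshold under all 7 of its alternatives, at 10.6 to 24.8 percentage points below the other arms. The higher intron share passed in 5 of 6 alternatives; among regions supported by both replicates, a setting chosen after seeing the data, the difference was 6.95 points and did not pass. The lower intergenic share passed in 5 of 6; among the strongest 25% it was -3.29 points and did not pass. The count of classes past the threshold was thereby 1, not 2, under each of those 2 settings. Among words, 1 passed with a window of 100 bp to either side, TATAAA, at -9.54 points (adjusted p of Fisher's exact test = 0.0259). The cause was not tested in any of these cases.

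Differences that had not passed also changed sign and still did not pass. The close neighbour share was 4.55 points higher on X in the strongest 25% and 0.633 points higher in regions supported by both replicates, and ranged from -5.39 to 0.00284 with 1 replicate left out. The replicate support share was -1.14 points with a match of 250 bp and ranged from -3.73 to 4.69 when 1 replicate was used alone. AAGTCA was at -0.254 points in the strongest 25%, -0.329 within 25 bp and -0.11 within 100 bp, and at -1.6 and -1.14 with 1 replicate left out. GAGAGA was at 2.6 points within 100 bp, and ranged from -1.79 to 0.377 with 1 replicate left out. TATAAA was at 0.266 points within 25 bp. With 1 group of 2 replicates and no control, no test over samples was made.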

Other observations

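The windows printed for Gapdh2 and CG32772 share the run tttaaagttaagcg, 14 bases long, on the same strand, which was the longest run shared by any pair of the 8 windows. It was noticed after the windows were read, and the words in it were not searched by the tests. The word AAGTTA within it lay within 50 bp of 26 of 230 X summits (11.3%) and of 140 of 1478 summits on the other arms (9.47%), against 6.09% of all X windows of that length and 6.36% of all other windows. Among the 50 strongest regions of each set, 8 on X and 5 on the other arms held it, and the 8 include the Gapdh2 and CG32772 windows that drew attention to the word. The sets differ in size, so the cut reaches further down in signal on X, where the last of the 50 ranked 371 among nuclear regions. The counts are therefore not at equal strength. The longer word AAAGTTA of the same run lay near 8 X summits (3.48%) and 63 summits on the other arms (4.26%), against 2.45% of all X windows and 2.55% of all other windows. No test was made.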
